A study of Mus musculus with 6 samples.

Results

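The genes that encode the oxidative phosphorylation machinery were described in AML blasts of 2 *Tet2* genotypes. The members were the protein-coding genes of the GENCODE M21 annotation whose symbol starts with Nduf, Sdh (only *Sdha* to *Sdhd*), Uqcr, Cox4 to Cox8 or Atp5, together with the 13 protein genes of the mitochondrial genome. They numbered 107 of 53458 annotated genes, with 94 nuclear and 13 mitochondrially encoded members. The naming rule also took in 8 assembly factors of complex I (*Ndufaf1* to *Ndufaf8*) and *Atp5s*, which are not subunits, and it placed *Ndufa4* with complex I although the protein is known as a subunit of complex IV.

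The blasts came from 3 Cebpa-/p30 Tet2+/+ mice (mice 19, 23 and 24) and 3 Cebpa-/p30 Tet2-/- mice (mice 5, 7 and 8) of the C57BL/6 strain. In both genotypes the remaining *Cebpa* allele makes only the short p30 protein, so that the labels set the groups apart by *Tet2*. Per the study's methods, donor bone marrow was transplanted into lethally irradiated congenic recipients, and the floxed *Cebpa* and *Tet2* alleles were then recombined by Mx1-Cre, an interferon-driven Cre that is induced with poly(I)-poly(C) and that acts in blood cells and in other tissues. Donor-derived bone marrow cells of moribund mice that lacked T-cell, B-cell and erythroid surface markers were sorted from frozen samples, and each mouse gave 1 library. The study's methods give the age of the recipients at transplantation, but the labels give no age at sampling. Each mouse was sampled when moribund, and since the genotypes differ in latency in the study, age at sampling and genotype cannot be told apart. Recipient blood cells that survived irradiation were set apart only by the sort for the donor CD45.2 allele.

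Each library held between 13036643 and 32855343 estimated reads, with mouse 24 the shallowest and mouse 5 the deepest. Levels are given in CPM, the usual scale of reads relative to the library's total, after TMM scaling, which corrects each library for the composition of its RNA. The myeloid gene *Mpo* had 4527, 4110 and 4230 CPM in Tet2+/+ and 3394, 3091 and 2662 CPM in Tet2-/- blasts, lower in every Tet2-/- mouse. Of 10 myeloid genes 8 had a positive log2 fold change, with a median of 0.42. *Ly6c2*, of the same list, had 1623, 1428 and 1049 CPM against 2993, 2124 and 2495 CPM, higher in every Tet2-/- mouse. The other 8 overlapped between genotypes. Erythroid genes summed to 144 CPM in mouse 19, mostly from the globins *Hbb-bt* and *Hbb-bs* at 83.0 and 48.3 CPM, and to 5.99 to 15.7 CPM in the other mice. The summed level of 8 mature neutrophil genes spanned 5713 to 31044 CPM in Tet2+/+ blasts and 12818 to 66626 CPM in Tet2-/- blasts, with mouse 23 lowest and mouse 7 highest. Basophil and mast cell genes, mostly *Cpa3*, summed to 304 to 396 CPM in Tet2+/+ and 30.9 to 110.2 CPM in Tet2-/- blasts, without overlap. Of these 7 genes, 3 had under 1 CPM, and *Fcer1a* was at 0 in 5 libraries, while *Cpa3* and *Gata2* were the genes without overlap and *Ms4a2* had a log2 fold change of 0.48. Genes of B and plasma cells summed to 163 to 265 CPM against 51.2 to 109.7 CPM, and all 8 reached a mean of 1 CPM. Of these, *Jchain* alone did not overlap, with 98.5, 165 and 135 CPM against 44.1, 27.6 and 26.6 CPM. T and NK cell genes summed to 34.6 to 40.9 CPM against 12.2 to 37.0 CPM and megakaryocyte genes to 26.8 to 49.2 CPM against 12.9 to 28.3 CPM, and within these lists *Ncr1* and *Itga2b* were lower in every Tet2-/- mouse. Of the T and NK cell genes, 4 of 8 had a positive log2 fold change. Of the 7 megakaryocyte genes, 4 had under 1 CPM, and 1 of 6 tested was positive. The part of these cell types in the values below was not tested, and in bulk RNA fewer cells of a type and less RNA per cell cannot be told apart. *Tet2* as a whole gene had 73.6, 79.5 and 98.4 CPM in Tet2+/+ and 111, 79.4 and 96.7 CPM in Tet2-/- blasts, so the gene-level sum did not separate the genotypes, and reads from any part of the gene that the allele retains count towards it.

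Oxidative phosphorylation passes electrons from NADH and succinate along complexes I to IV of the inner mitochondrial membrane to oxygen, and complex V uses the resulting proton gradient to make ATP. Complexes I, III, IV and V are assembled from subunits of both genomes, with the catalytic or proton-moving membrane subunits encoded by mitochondrial DNA and most others by the nucleus. Complex II is encoded by nuclear genes alone. The mitochondrial messages are cut from long transcripts of the whole circle, while each nuclear subunit has its own promoter. Leukemic blasts and their normal stem and progenitor counterparts are known to differ in how far they rely on this pathway.

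The messages of the 2 genomes lay in opposite directions. Of the mitochondrially encoded members, 11 of 13 were lower in Tet2-/- blasts, and their median log2 fold change was -0.50. Nuclear members were higher for 78 of 90 tested genes, with a median of 0.27, where all 22170 genes tested had a median of 0.00. No single member passed the threshold of an adjusted p of 0.05 in edgeR (quasi-likelihood test, p adjusted over all genes by the Benjamini-Hochberg method). The lowest adjusted p was 0.520, for *mt-Nd4l*. Over all genes, 0.0451% passed. DESeq2 also called 0 members at that threshold, where it called 2.16% of the genes it gave an adjusted p, and its lowest adjusted p among members was 0.116. At an unadjusted p under 0.05, edgeR gave 5 lower members, all mitochondrial, where 5.12% of all genes were lower, and 8 higher members, all nuclear, where 3% of all genes were higher. Among the shortest protein-coding genes with at least 10 CPM, the group in which most nuclear members fall, 155 of 2184 were higher at this threshold. The 8 of 90 nuclear members tested lie near that share. The 103 members tested include 3 low ones under 1 CPM. *Ndufa4l2*, *Cox7b2*, *Cox8b* and *Cox8c* had too few reads to be tested.

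Counting members in which all mice of a genotype lay on 1 side of all mice of the other gave a description without a model. Among the 100 members that averaged 1 CPM or more, 8 were lower in every Tet2-/- mouse, all of them mitochondrial. Over all genes at this level 7.71% did so, a share close to that over all members, and the 5 of 103 lower members at an unadjusted p under 0.05 were likewise close to the share over all genes. Another 18 were higher in every Tet2-/- mouse, all of them nuclear, and 8.24% of all genes at this level did so. In the shortest protein-coding genes with at least 10 CPM, where most nuclear members fall, 336 of 2184 did so. The 18 of 87 nuclear members at this level lie nearer to that share than to the one over all genes.

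**Figure D1:**
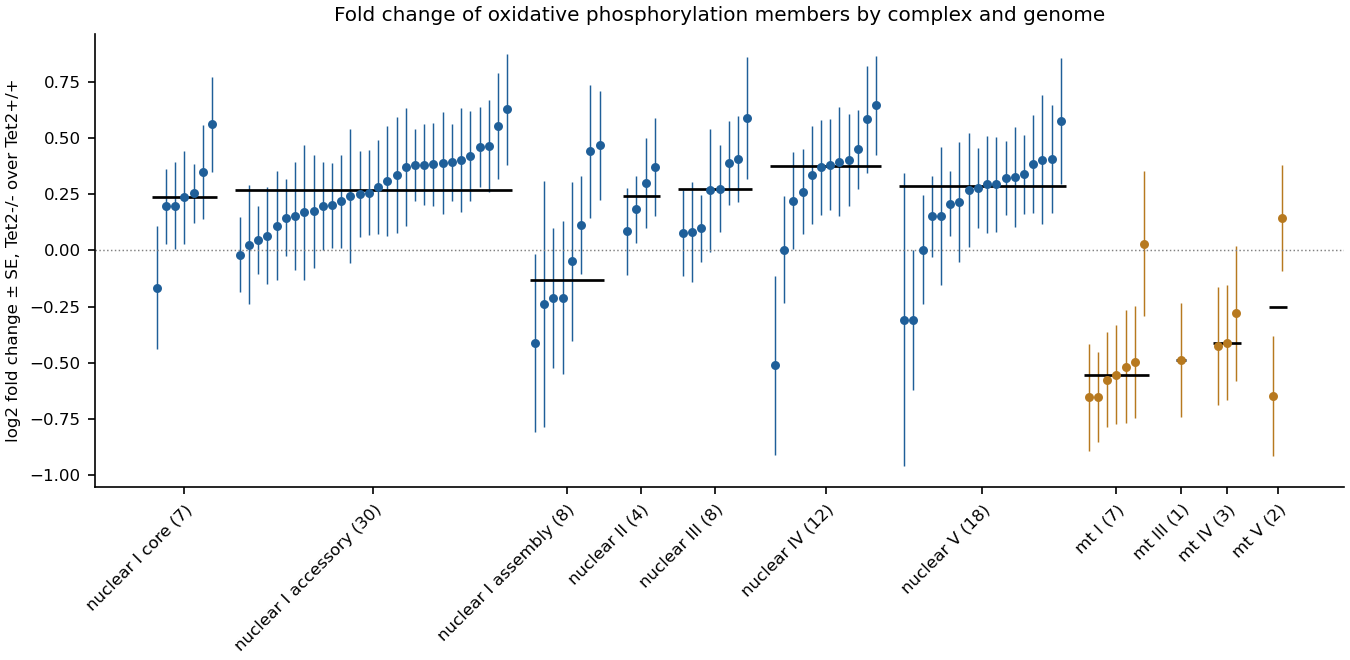
Log2 fold change (Tet2-/- over Tet2+/+, edgeR, error bars SE) of the 100 members with a mean of at least 1 CPM, grouped by complex and by genome, with the number of members in brackets and the median of each group as a black line. Nuclear groups other than the complex I assembly factors have medians above 0, and the mitochondrial (mt) groups have medians below 0.

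The mitochondrial members are taken first, by complex. The 7 ND genes encode the membrane subunits of complex I, the NADH dehydrogenase that pumps protons, and their median log2 fold change was -0.55. *mt-Nd1* (chrM:2751-3707, GRCm38) had 1761, 1857 and 1970 CPM in Tet2+/+ mice 19, 23 and 24, against 1077, 1006 and 1466 CPM in Tet2-/- mice 5, 7 and 8, and values below follow this order of mice. All 3 Tet2-/- mice lay below all Tet2+/+ mice, and the log2 fold change was -0.65 ± 0.24 (SE, edgeR unadjusted p = 0.0284, adjusted p = 0.591). *mt-Nd4l* (chrM:9877-10173) had 372, 413 and 426 CPM against 202, 273 and 294 CPM. It was again lower in every Tet2-/- mouse, with a log2 fold change of -0.65 ± 0.20 (edgeR unadjusted p = 0.0139). *mt-Nd2* (chrM:3914-4951) had 928, 1043 and 1064 CPM against 562, 698 and 775 CPM, a log2 fold change of -0.58 ± 0.21 (edgeR unadjusted p = 0.0288). In these 3 genes mouse 24 was the highest of all mice and mouse 5 or mouse 7 the lowest.

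*mt-Nd6* (chrM:13552-14070) is the only protein gene read from the opposite strand of the circle. It had 494, 595 and 589 CPM in Tet2+/+ and 339, 326 and 478 CPM in Tet2-/- blasts, a log2 fold change of -0.55 ± 0.22 (edgeR unadjusted p = 0.0395). The groups did not overlap, but the library kit does not mark strand, so reads from the opposite strand of this locus cannot be told apart from it. *mt-Nd5* and *mt-Nd4* were lower in every Tet2-/- mouse too, with log2 fold changes of -0.52 ± 0.25 and -0.50 ± 0.25, and neither passed an unadjusted p of 0.05 in edgeR. *mt-Nd3* was the exception, with 56.5, 44.9 and 80.8 CPM against 44.5, 52.4 and 89.2 CPM and a log2 fold change of 0.03 ± 0.32.

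*mt-Cytb* (chrM:14145-15288) encodes cytochrome b, the mitochondrially encoded subunit of complex III. It had 2600, 2704 and 2976 CPM in Tet2+/+ and 1515, 2191 and 2195 CPM in Tet2-/- blasts. Every Tet2-/- mouse was lower, and the log2 fold change of -0.49 ± 0.26 did not pass (edgeR unadjusted p = 0.0968).

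Complex IV, cytochrome c oxidase, has its catalytic core in *mt-Co1* and *mt-Co2*, which hold the heme and copper centers, and in *mt-Co3*. Their genotypes overlapped. *mt-Co1* (chrM:5328-6872), the most read member of all, had 8176, 9401 and 8510 CPM against 7272, 5746 and 8467 CPM, a log2 fold change of -0.28 ± 0.30. *mt-Co2* (chrM:7013-7696) had 2773, 3443 and 3495 CPM against 2308, 2127 and 2869 CPM, and *mt-Co3* (chrM:8607-9390) had 3058, 3844 and 4112 CPM against 2560, 2436 and 3207 CPM. In each, mouse 8 lay above mouse 19 and no other pair crossed, and the log2 fold changes were -0.41 ± 0.26 and -0.42 ± 0.26.

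Complex V, the ATP synthase, takes *mt-Atp6*, which forms its proton path, and *mt-Atp8* from the mitochondrial genome. The messages are made together and their reading frames overlap over 43 bases. The sequence from chrM:7897-7999 (GRCm38, GENCODE M21 transcripts, read along the transcript) is shown because these neighbours on a shared message differed in the sign of their fold change, and the bases that both genes share are in capitals:

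mt-Atp8 to mt-Atp6: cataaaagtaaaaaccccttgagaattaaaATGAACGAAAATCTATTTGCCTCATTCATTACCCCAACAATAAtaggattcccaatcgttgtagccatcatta

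*mt-Atp8* (chrM:7766-7969) had 1115, 1134 and 1172 CPM in Tet2+/+ and 502, 736 and 941 CPM in Tet2-/- blasts, without overlap (log2 fold change -0.65 ± 0.27, edgeR unadjusted p = 0.0448). *mt-Atp6* (chrM:7927-8607) had 894, 1242 and 1280 CPM against 1399, 1262 and 1111 CPM, with overlap and a log2 fold change of 0.14 ± 0.24. The members on either side of it, *mt-Atp8* and *mt-Co3*, were both on the lower side.

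*mt-Atp6* and *mt-Nd3* shared a feature that the choice of members did not use. A nuclear stretch of mitochondrial origin on chromosome 1 of GRCm38, from 24611535 to 24616197, holds annotated copies of 7 members. Over the bases compared, *Gm10925* (chr1:24613974-24614651) was identical to *mt-Atp6* at all 678 bases, *Gm28661* to *mt-Co2* at 681, *Gm28437* to *mt-Co3* at 783, *Gm28439* to *mt-Nd4* at 876 and *Gm10222* to *mt-Nd4l* at 294. *Gm29216* differed from *mt-Co1* at 6 of 492 bases. *Gm28438* (chr1:24612775-24613119) differed from *mt-Nd3* at 1 of 345 bases, T3C, counted from 1 at the start of the *mt-Nd3* transcript. The start of both is shown because that base, in capitals, is all that separates them over the bases compared (*mt-Nd3*, chrM:9459-9481):

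mt-Nd3: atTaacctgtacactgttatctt

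Gm28438: atCaacctgtacactgttatctt

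Salmon, which made the estimated reads, divides reads that fit several transcripts among them. *Gm10925* was given 51187, 52707 and 42722 reads in Tet2+/+ and 26722, 29300 and 43694 reads in Tet2-/- blasts. *mt-Atp6* itself was given 14938, 23204 and 18173 reads against 44231, 19633 and 20466 reads. The copy thus took 69.4% to 77.4% of the reads of the pair in Tet2+/+ and 37.7% to 68.1% in Tet2-/- blasts, with mouse 5 the lowest. For *mt-Nd3* the copy took 67.5% to 82.8% and 65.0% to 74.7%. For *mt-Co1*, *mt-Co2*, *mt-Co3* and *mt-Nd4* the copies took between 3.89% and 23.3% in any library, and *Gm10222* was given no reads. Which locus the shared reads came from cannot be told apart from these files.

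When the reads of a copy were added to its member, all 13 mitochondrial members were lower in Tet2-/- blasts, with a median of -0.52 on the log2 scale, and 11 did not overlap. *mt-Atp6* then had 3955, 4065 and 4288 CPM in Tet2+/+ and 2244, 3146 and 3482 CPM in Tet2-/- blasts, a log2 fold change of -0.47 ± 0.27 in place of 0.14. *mt-Nd3* had 287, 262 and 249 CPM against 176, 188 and 255 CPM, with mouse 8 above mouse 24, and a log2 fold change of -0.37 ± 0.20 in place of 0.03. *mt-Co2* and *mt-Co3* no longer overlapped, at -0.36 ± 0.24 and -0.33 ± 0.25, and *mt-Co1* still did, at -0.26 ± 0.30. The lowest adjusted p among all members was 0.517 (edgeR, Benjamini-Hochberg), so no member was called with the copies added either.

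**Figure D2:**
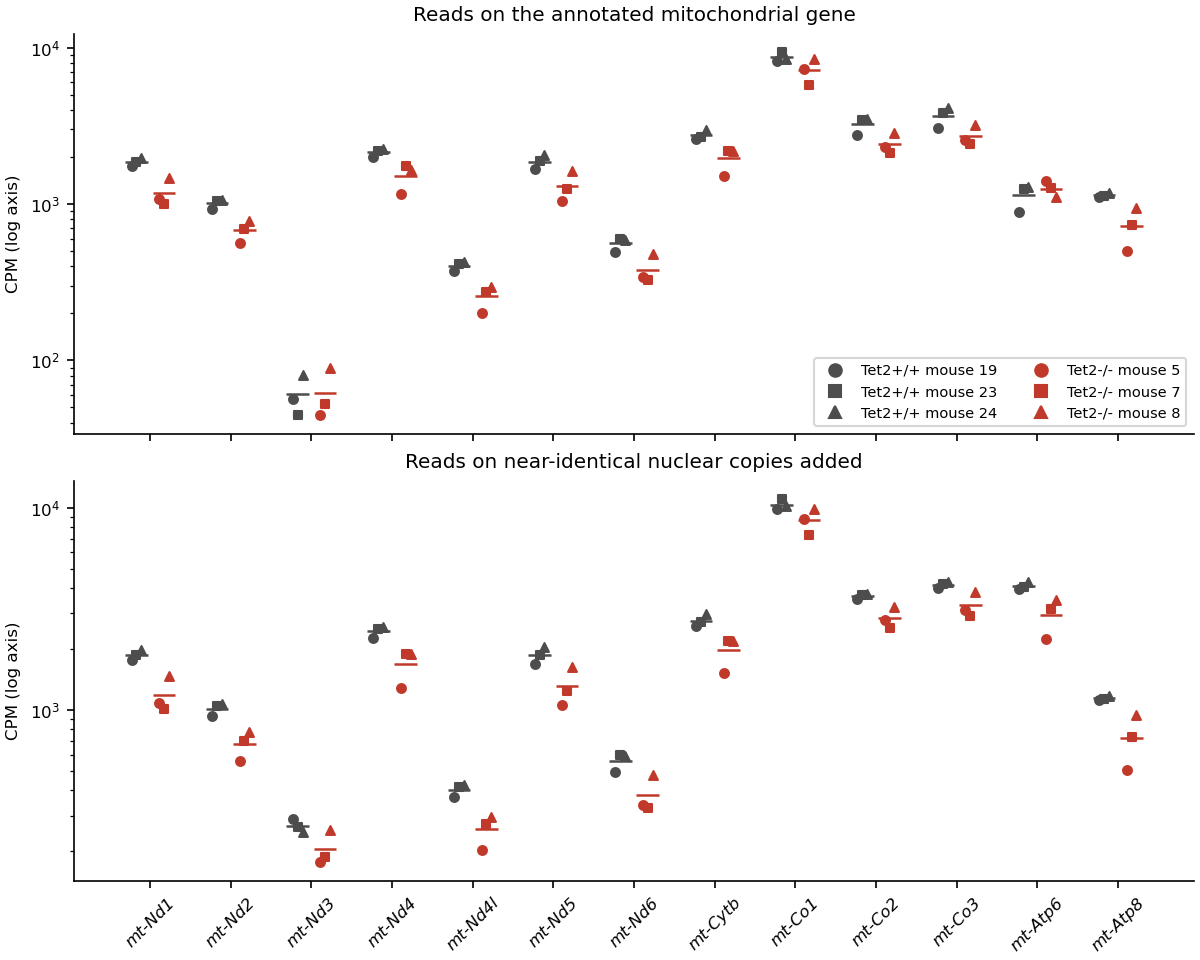
CPM (log axis) of the 13 mitochondrially encoded members in each mouse, with the genotype mean as a line, for reads on the annotated gene (top) and with the reads of near-identical nuclear copies added (bottom). *mt-Atp6* overlaps between genotypes in the top panel and has every Tet2-/- mouse below every Tet2+/+ mouse in the bottom panel.

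Among the mice, the mitochondrial members with their copies were lowest in mouse 5 for 8 genes and in mouse 7 for 5, and highest in mouse 24 for 10. Mouse 8 lay closest to the Tet2+/+ mice, with a median deviation from each gene's mean of 0.01 on the log2 scale, against -0.55 in mouse 5 and -0.31 in mouse 7. The Tet2+/+ mice lay between 0.17 and 0.36. The 2 mitochondrial rRNA genes, which a poly(A) library captures poorly, made up 0.0617% to 0.0979% of reads in Tet2+/+ and 0.0617% to 0.0772% in Tet2-/- blasts, with overlap.

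The nuclear members are described by complex. In complex I, 29 of the 30 accessory subunits tested and 6 of 7 core subunits were on the higher side, with medians of 0.27 and 0.24. *Ndufs7* (chr10:80249121-80256794), a core subunit that carries an iron-sulfur cluster next to the ubiquinone site, had 26.7, 30.2 and 24.2 CPM in Tet2+/+ and 50.4, 33.8 and 35.7 CPM in Tet2-/- blasts. It was higher in every Tet2-/- mouse, with a log2 fold change of 0.56 ± 0.21 (edgeR unadjusted p = 0.0329, adjusted p = 0.599). *Ndufs1*, a core subunit of the NADH arm, was also above without overlap at 67.3, 67.9 and 67.4 CPM against 81.3, 79.6 and 81.0 CPM, and its small log2 fold change of 0.26 ± 0.13 did not pass (edgeR unadjusted p = 0.0956). *Ndufs3* was the core subunit on the lower side, with 30.7, 37.0 and 28.2 CPM against 23.1, 22.2 and 40.2 CPM. Mice 5 and 7 lay below and mouse 8 above all Tet2+/+ mice, so the genotypes overlapped (log2 fold change -0.17 ± 0.27), and when only transcripts annotated as protein-coding were summed its log2 fold change was 0.57 ± 0.64.

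In all, 4 accessory subunits passed an unadjusted p of 0.05 on the higher side. *Ndufb3* (chr1:58586384-58595964), of the membrane arm, had 36.5, 32.0 and 23.1 CPM in Tet2+/+ and 58.1, 37.3 and 46.2 CPM in Tet2-/- blasts (log2 fold change 0.63 ± 0.25, edgeR unadjusted p = 0.0372). *Ndufb9* (chr15:58933756-58939488), also of the membrane arm, had 78.4, 64.6 and 45.8 CPM against 107.3, 78.9 and 91.3 CPM (0.56 ± 0.23, edgeR unadjusted p = 0.0494). In both genes mouse 24 was lowest and mouse 5 highest, and mouse 7 lay just above mouse 19. *Ndufa13*, known as GRIM-19, had 48.0, 51.1 and 37.7 CPM against 70.8, 60.4 and 57.2 CPM (0.46 ± 0.18, edgeR unadjusted p = 0.0364). *Ndufa8* had 37.7, 38.3 and 31.5 CPM against 49.8, 43.3 and 47.0 CPM (0.38 ± 0.16, edgeR unadjusted p = 0.0498). *Ndufs4* was the accessory subunit at the other end, with 29.3, 32.0 and 37.7 CPM against 33.3, 32.3 and 32.1 CPM and a log2 fold change of -0.02 ± 0.17.

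The 8 complex I assembly factors had a median of -0.13 on the log2 scale, and 3 of 8 were on the higher side. *Ndufaf3* was above in every Tet2-/- mouse, at 9.87, 10.6 and 10.3 CPM against 14.4, 17.4 and 10.9 CPM, while mouse 8 exceeded mouse 23 by little (log2 fold change 0.47 ± 0.24). *Ndufaf2* was the most negative at -0.41 ± 0.40, with 4.91, 6.32 and 4.22 CPM against 5.09, 2.25 and 4.23 CPM, and its genotypes overlapped.

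Complex II, succinate dehydrogenase, links the citric acid cycle to the chain. All 4 subunits had a positive fold change and all 4 overlapped between genotypes. *Sdhb*, the iron-sulfur subunit, was the most positive, with 65.3, 61.9 and 45.5 CPM in Tet2+/+ and 68.4, 62.9 and 92.4 CPM in Tet2-/- blasts (log2 fold change 0.37 ± 0.22). *Sdha*, the flavoprotein, had 154, 170 and 149 CPM against 183, 130 and 189 CPM (0.09 ± 0.19), with mouse 7 the lowest of all.

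All 8 nuclear members of complex III had a positive fold change, with a median of 0.27. *Uqcrq*, a small subunit that sits next to cytochrome b, was the most positive, with 29.9, 33.7 and 20.1 CPM against 52.8, 31.8 and 41.6 CPM. Mouse 7 lay below mouse 23, so the genotypes overlapped (log2 fold change 0.59 ± 0.27). *Uqcr10* was the member without overlap, with 37.0, 34.4 and 27.5 CPM against 48.5, 37.2 and 45.4 CPM (0.41 ± 0.19). *Uqcrb* was the least positive at 0.08 ± 0.19.

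In complex IV, 12 of 15 tested nuclear members had a positive fold change, with a median of 0.37. The 3 that passed an unadjusted p of 0.05 were small subunits in their widely expressed isoforms. *Cox6a1* (chr5:115345642-115348981) had 79.6, 78.1 and 60.9 CPM in Tet2+/+ and 145.8, 93.6 and 103 CPM in Tet2-/- blasts, the largest log2 fold change among nuclear members of at least 1 CPM at 0.65 ± 0.22 (edgeR unadjusted p = 0.0212, adjusted p = 0.564). *Cox8a* (chr19:7215153-7217616) had 100.3, 91.9 and 82.4 CPM against 184, 125 and 103 CPM (0.59 ± 0.24, edgeR unadjusted p = 0.0435), and here mouse 8 lay just above mouse 19. *Cox7a2* (chr9:79755361-79759878) had 64.4, 54.5 and 49.6 CPM against 87.7, 75.1 and 67.8 CPM (0.45 ± 0.18, edgeR unadjusted p = 0.0370). *Cox4i1*, the subunit that binds regulatory nucleotides, had 176, 185 and 146 CPM against 242, 173 and 246 CPM, with mouse 7 within the Tet2+/+ range (0.38 ± 0.20).

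Several complex IV subunits exist as tissue isoforms, and the blasts used the widely expressed ones. Compared per length as TPM, the hypoxia-responsive *Cox4i2* made up 0.0563% to 0.294% of the sum with *Cox4i1*, the muscle isoform *Cox6a2* made up 0.183% to 1.23% of the sum with *Cox6a1*, and *Cox7a1* made up 0.400% to 1.64% of the sum with *Cox7a2*. *Cox8c* and *Cox7b2* had 0 reads in every library, which allows a level of up to 0.0913 to 0.230 CPM at 3 reads a library, and *Cox8b* had 1 read and *Ndufa4l2* 5 reads in all. *Cox6b2*, known as the testis isoform, was an exception in level, at 4.94% to 13.6% of the sum with *Cox6b1*. It had 20.7, 21.1 and 19.1 CPM in Tet2+/+ and 24.1, 9.13 and 9.39 CPM in Tet2-/- blasts, so that mouse 5 stood above and mice 7 and 8 below all Tet2+/+ mice (log2 fold change -0.51 ± 0.40). *Cox6b1* had 72.8, 81.4 and 65.1 CPM against 101.5, 62.4 and 92.0 CPM.

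In complex V, 16 of 18 nuclear members had a positive fold change, with a median of 0.29. *Atp5d*, of the central stalk that turns against the catalytic head, was the most positive, with 61.4, 76.4 and 49.4 CPM in Tet2+/+ and 127, 65.7 and 86.4 CPM in Tet2-/- blasts. Mouse 7 lay below mouse 23, and the log2 fold change of 0.58 ± 0.28 did not pass (edgeR unadjusted p = 0.0797). *Atp5b*, the catalytic beta subunit, had 562, 539 and 469 CPM against 733, 500 and 692 CPM (0.29 ± 0.22), again with mouse 7 inside the Tet2+/+ range. Of the 2 negative members, *Atp5s* is not a subunit of the enzyme core, and the gene identified as ENSMUSG00000116933 (chr16:91684398-91926982) is a second annotated *Atp5o* that spans into a neighbouring gene and had 0.579 to 4.13 CPM. The main *Atp5o* gene had a log2 fold change of 0.33 ± 0.22.

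Per length, the highest nuclear members by mean TPM were *Cox7b* in complex IV (925 TPM), *Atp5j* in complex V (743 TPM), *Sdha* in complex II (308 TPM), *Ndufa10* among complex I accessory subunits (237 TPM), *Uqcrh* in complex III (149 TPM) and *Ndufaf2* among assembly factors (33.3 TPM). This order rests on the effective lengths that Salmon assigned, which were 36.1 bases for *Cox7b* and 56.9 bases for *Atp5j*. For *mt-Atp8* the effective length was 10.0 bases and the mean TPM 49847, so levels per length of the shortest messages were not compared further. Among longer mitochondrial messages, *mt-Co1* had a mean of 4011 TPM and *mt-Cytb* 1703 TPM.

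The nuclear members also varied between mice of a genotype. Mouse 24 was the lowest of the 6 mice in 53 of 87 nuclear members and mouse 7 in 26, whereas mouse 5 was the highest in 50 and mouse 8 in 27. The median deviation from each member's mean was -0.03, -0.01 and -0.29 on the log2 scale in the Tet2+/+ and 0.33, -0.16 and 0.24 in the Tet2-/- mice. Marker genes of other cells varied over the same mice. Genes of monocytes and macrophages summed to 682, 1509 and 581 CPM in Tet2+/+ and 867, 355 and 2320 CPM in Tet2-/- blasts, and those of plasmacytoid dendritic cells, mostly from *Irf8*, to 181, 196 and 76.6 CPM against 150, 58.3 and 205 CPM. Both sums were lowest in mice 7 and 24 and highest in mouse 8, whereas the neutrophil sum was highest in mouse 7 and lowest in mouse 23. All 8 monocyte genes and 5 of 6 dendritic cell genes had a mean of at least 1 CPM. The defining dendritic cell gene *Siglech* did not follow its sum, with 2.09, 2.41 and 1.62 CPM against 0.316, 0.386 and 0.434 CPM, lower in every Tet2-/- mouse. The part of these cells in the nuclear members was not tested. The counts at an unadjusted p under 0.05 in edgeR moved with these mice. Leaving out mouse 19, 23, 24, 5, 7 or 8 gave 5, 3, 0, 0, 37 and 7 higher members, respectively, and 3, 1, 0, 2, 5 and 6 lower members.

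**Figure D3:**
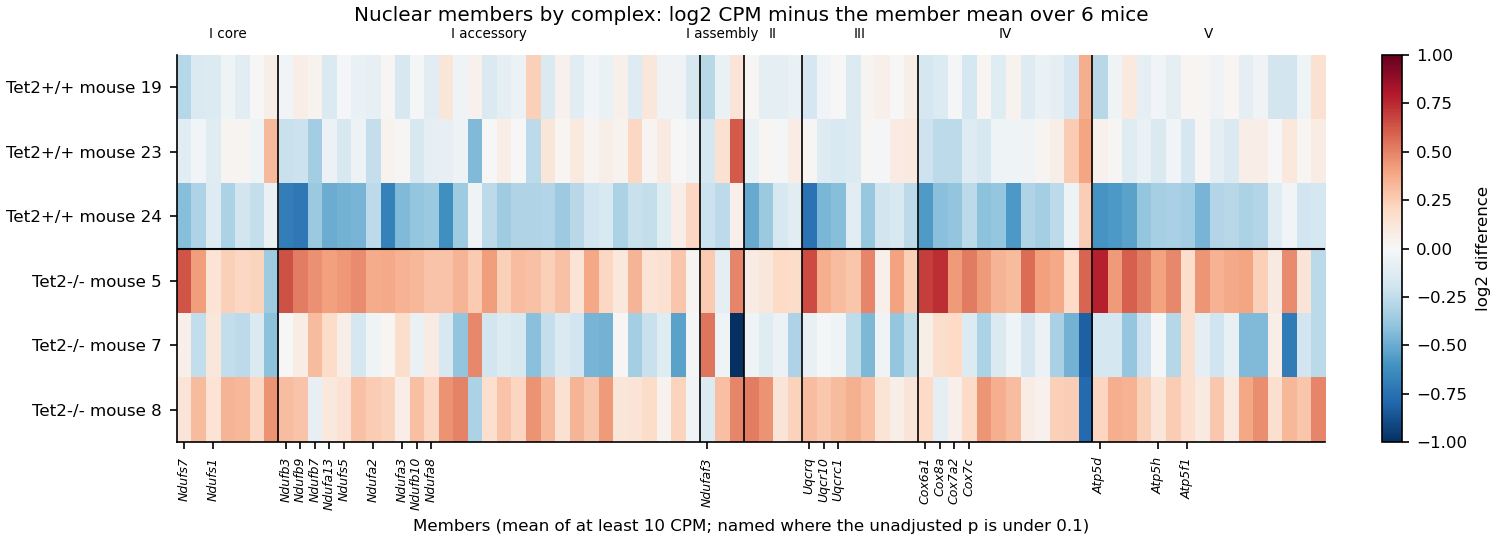
Log2 CPM minus the mean over 6 mice for the 79 nuclear members with a mean of at least 10 CPM, with mice as rows and members as columns ordered by complex and by fold change, the color scale limited to 1 in either direction, and names given for the members with the lowest unadjusted p. Mouse 24 is low and mice 5 and 8 are high across complexes, whereas mouse 7 resembles the Tet2+/+ mice.

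The shift of the nuclear members was set beside genes of like kind. Protein-coding genes averaging 10 CPM or more had a median of 0.11, and 5657 of 8736 were positive. When these were split by effective length into 4 groups of 2184, the median was 0.16 in the shortest group, with 1634 positive, and 0.05 in the longest. In the shortest group 336 genes were higher in every Tet2-/- mouse, against 166 in the longest, where 66 genes were higher at an unadjusted p under 0.05 in edgeR. Nuclear members are short, with a median effective length of 314 bases against 1619, and 72 of the 79 with at least 10 CPM fell in the shortest group. Scaling also bears on the direction: by library size alone the median of all genes moved to -0.17, that of nuclear members to 0.11 with 62 of 90 positive, and that of mitochondrial members to -0.68 with 13 of 13 negative. Relative to all genes the nuclear median was then 0.28 above and the mitochondrial one -0.51, close to the 0.27 and -0.50 under TMM, but only 2 nuclear members were higher without overlap and 0 passed an unadjusted p of 0.05 in edgeR.

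A ratio within each library does not depend on scaling. Mitochondrial members with their copies took 3.26%, 3.91% and 3.88% of gene reads in the Tet2+/+ mice and 2.28%, 2.12% and 3.03% in the Tet2-/- mice, without overlap. Nuclear members took 0.571%, 0.642% and 0.523% against 0.711%, 0.464% and 0.703%, with overlap through mouse 7. The ratio of the former to the latter was 5.71, 6.10 and 7.42 in Tet2+/+ blasts (6.41 ± 0.89, SD, n = 3) and 3.20, 4.56 and 4.31 in Tet2-/- blasts (4.02 ± 0.72, SD, n = 3). Every Tet2-/- mouse lay below every Tet2+/+ mouse, mouse 7 included, and the mean ratio was 0.628 times that of Tet2+/+ blasts. Without the copies the ratio was 4.52 to 6.24 against 2.71 to 3.70, also without overlap.

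**Figure D4:**
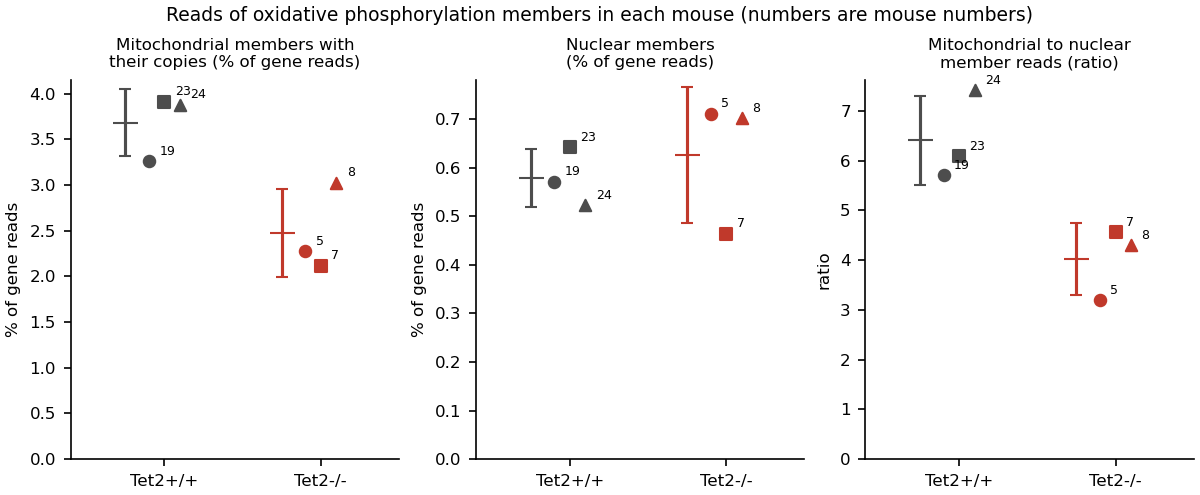
Share of gene reads on mitochondrial members with their copies (left, %), on nuclear members (middle, %) and the ratio of both (right) in each mouse, with the mean ± SD (n = 3) of each genotype beside the points. The ratio is 5.71 to 7.42 in Tet2+/+ and 3.20 to 4.56 in Tet2-/- blasts.

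Nuclear members also have copies elsewhere in the genome. Processed pseudogenes identical over their length to *Atp5g2* (*Gm10175*), *Atp5l* (*Gm10221*) and *Cox7c* (*Gm12338*) took reads in every library, and *Ndufb4c*, a copy of *Ndufb4*, had 217 to 804 reads. With these copies added the nuclear median was 0.27 and 78 of 90 members were positive, as without them. Of the reads on nuclear members, 77.8% to 79.9% were on transcripts annotated as protein-coding, and transcripts with a retained intron took 7.41% to 8.34% in Tet2+/+ and 6.98% to 7.26% in Tet2-/- blasts, without overlap. Their part in the fold changes was not tested, and with protein-coding transcripts alone the nuclear median was 0.26.

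The promoters of nuclear members were examined for letters known from nuclear respiratory genes, since these members lay on the higher side together. RefSeq windows from 250 bases before to 50 bases after the start (GRCm38.p6) matched 77 of 94 nuclear members, and in 68 the end of the window was found in a GENCODE transcript of the gene. On either strand, GCATGCGC, the core of the NRF1 motif, was in a window of 15.6% of these members, against 6.91% of 7030 genes with at least 10 CPM and 3.05% of all 27025 genes with a window. AAGATGG, the core of the YY1 motif, was in 15.6%, 9.30% and 7.28%, and CCGGAAG, the ETS core, in 23.4%, 24.1% and 9.93%. AAGGTCA, a site of estrogen-related receptors, was in 10.4%, 3.71% and 5.38%. The motifs do not contain each other, and a full NRF1 palindrome holds its core on both strands. Members with the NRF1 core had a median log2 fold change of 0.38 and those without 0.25. For YY1 these were 0.35 and 0.25, for ETS 0.29 and 0.26, and for the estrogen-related receptor site 0.20 and 0.28. These are descriptions of letters and not of binding.

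Of the 8 higher members at an unadjusted p under 0.05, the windows of 4 are shown because they hold matches named here, in capitals, written 5′ to 3′ on the strand of the gene. They are *Cox6a1* (chr5:115348909-115349208, minus strand, NRF1 and ETS), *Cox8a* (chr19:7217567-7217866, minus strand, 2 ETS matches), *Ndufa8* (chr2:36049289-36049588, minus strand, NRF1) and *Ndufs7* (chr10:80249199-80249498, plus strand, YY1). The windows of *Cox7a2*, *Ndufa13* and *Ndufb3* held none of these letters, and *Ndufb9* was not matched to a window. Of the 77 nuclear members with a window, 39 (50.6%) held at least 1 of the 4 motifs in any of their windows, against 38.0% of genes with at least 10 CPM and 23.1% of all genes.

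Cox6a1: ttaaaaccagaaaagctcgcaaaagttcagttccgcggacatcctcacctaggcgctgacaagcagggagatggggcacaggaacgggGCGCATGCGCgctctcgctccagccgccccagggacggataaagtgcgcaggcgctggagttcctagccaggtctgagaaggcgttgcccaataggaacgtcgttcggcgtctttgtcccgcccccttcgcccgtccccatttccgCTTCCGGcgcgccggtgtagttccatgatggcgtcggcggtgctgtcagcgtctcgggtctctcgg

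Cox8a: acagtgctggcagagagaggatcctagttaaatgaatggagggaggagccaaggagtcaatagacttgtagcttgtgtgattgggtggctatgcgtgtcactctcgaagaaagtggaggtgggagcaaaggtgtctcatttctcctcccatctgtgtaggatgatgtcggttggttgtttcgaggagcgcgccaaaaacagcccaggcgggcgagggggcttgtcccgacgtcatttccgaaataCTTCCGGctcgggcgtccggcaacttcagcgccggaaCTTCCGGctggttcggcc

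Ndufa8: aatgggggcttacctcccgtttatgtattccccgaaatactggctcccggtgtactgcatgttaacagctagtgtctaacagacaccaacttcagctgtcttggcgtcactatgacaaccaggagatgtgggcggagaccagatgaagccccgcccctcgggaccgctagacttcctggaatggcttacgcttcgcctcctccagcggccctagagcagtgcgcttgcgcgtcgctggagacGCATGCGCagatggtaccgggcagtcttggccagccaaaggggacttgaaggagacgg

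Ndufs7: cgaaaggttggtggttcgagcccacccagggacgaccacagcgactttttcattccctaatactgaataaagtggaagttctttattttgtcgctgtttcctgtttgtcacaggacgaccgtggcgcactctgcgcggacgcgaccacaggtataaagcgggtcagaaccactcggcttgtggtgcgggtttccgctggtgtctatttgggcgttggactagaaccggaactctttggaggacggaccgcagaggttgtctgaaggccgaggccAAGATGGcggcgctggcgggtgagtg

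Genes that carry electrons between complexes, build them or express mitochondrial DNA were described from lists that are no members. No gene of these lists passed an adjusted p of 0.05 in edgeR, and DESeq2 called *Cmc2* alone. Each gene at an unadjusted p under 0.05 in edgeR is named or counted here. The 3 genes of the cytochrome c list, *Cyc1*, *Cycs* and *Hccs*, were all positive. *Hccs* encodes an enzyme that attaches heme and not a carrier. *Cycs*, which encodes cytochrome c itself, overlapped (log2 fold change 0.20 ± 0.26). *Cyc1*, the cytochrome c1 of complex III that the naming rule leaves out, had 102, 83.1 and 62.1 CPM in Tet2+/+ and 142.7, 112 and 121 CPM in Tet2-/- blasts (log2 fold change 0.60 ± 0.22, edgeR unadjusted p = 0.0276). Assembly factors of complex I outside the members had a median of -0.03 with 2 of 8 positive, those of complex II -0.15 with 1 of 4 positive, those of complex III 0.22 with 4 of 6 positive and those of complex V 0.01 with 2 of 3 positive. Those of complex IV had a median of 0.11 over 23 genes, with 1 lower and 1 higher at an unadjusted p under 0.05. The lower was *Cmc2*, a small twin-cysteine protein of complex IV assembly, with 67.0, 56.3 and 50.9 CPM against 28.0, 16.1 and 17.9 CPM. It was the gene with the largest difference in these lists, without overlap, at a log2 fold change of -1.49 ± 0.25 (edgeR unadjusted p = 0.000595, adjusted p = 0.167, and DESeq2 adjusted p = 9.24e-05). The higher was *Cox14* at 0.60 ± 0.21.

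The factors that maintain and transcribe mitochondrial DNA had a median log2 fold change of -0.08 over 15 genes. *Polg*, the catalytic subunit of the mitochondrial DNA polymerase, was the gene that passed an unadjusted p of 0.05, with 107, 79.5 and 85.6 CPM in Tet2+/+ and 127, 169 and 119 CPM in Tet2-/- blasts (0.61 ± 0.21, edgeR unadjusted p = 0.0210). Regulators of mitochondrial biogenesis had a median of 0.09 with 5 of 8 tested positive, and *Myc* was the most negative at -0.52. Among them *Esrra*, an estrogen-related receptor, had 34.6, 33.9 and 32.0 CPM against 52.2, 56.4 and 36.2 CPM (0.53 ± 0.20, edgeR unadjusted p = 0.0351). Genes of the citric acid cycle had a median of 0.21 with 12 of 13 positive, carriers and porins 0.11 with 5 of 6 positive, and the 78 mitochondrial ribosomal protein genes 0.17 with 63 positive, 6 of them at an unadjusted p under 0.05. All 6 were higher, among them *Mrpl33* with 74.4, 70.7 and 73.2 CPM against 110, 102 and 90.2 CPM.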

How the data were processed

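RNA-seq libraries of 6 mice were analysed, 3 per genotype. Per the labels and the study's methods, poly(A) libraries without strand information were made, and the authors quantified reads with Salmon 0.12.0 against Ensembl transcripts of GRCm38. For 136288 transcripts the authors deposited an estimated count, which is not normalized, and a TPM, which is scaled to library total and effective length. Transcripts without a gene in GENCODE M21 (112, with 0.0307% to 0.0416% of reads) were left out.

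Counts were added up per gene and rounded (Python 3.11.15, pandas 2.3.3). A gene was kept if its counts, normalized for library size, reached a sum of 10 over the mice, which left 22170 genes. These were fitted in R 4.3.3 with edgeR 4.0.16 (quasi-likelihood test, TMM factors of 0.867 to 1.11, no covariates, Benjamini-Hochberg adjustment). Tests are two-sided, and a p-value sets the difference between genotypes against the spread between these mice. Per the study, each donor was represented by several recipients, and the sample titles name no donor. Whether the mice of a genotype had separate donors cannot be told. The SE of a log2 fold change was derived from the F statistic. The biological coefficient of variation was 43.6%. The fit was tested on simulated data, drawn gene by gene from its own dispersion with known changes, and the outcome is not reported here. Such data cannot test reads shared between copies or shifts shared across genes within a mouse. Copies were found with BLAST+ 2.17.0, at an identity of 95% or more across 50% or more of a transcript. Floors of 3 reads cover counting error only. Figures were drawn with matplotlib 3.10.9.

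The members, lists and motifs were chosen with earlier results of these data known. Genes were named by rule: all mitochondrial members, nuclear members at an unadjusted p under 0.05, in each complex the highest in TPM and the extreme fold changes, and tissue isoforms. Not every gene that the rule names is reported here. Others named were chosen after their values were seen. Alternatives were DESeq2 1.42.0, length-scaled counts as in tximport with either tool (the study used DESeq2 on these), 2 other filters, library size alone, RLE factors, mitochondrial genes left out, protein-coding transcripts alone, copies added and each mouse left out. The comparison with protein-coding genes by length was added after seeing the data.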

Additional observations from a re-analysis of the deposited data

How the results depend on the processing

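No member passed an adjusted p of 0.05 (edgeR or DESeq2, Benjamini-Hochberg) under any alternative, and the lowest adjusted p among members lay between 0.116 and 0.999. When single mice were left out, the median log2 fold change was 0.17 to 0.40 for nuclear and -0.58 to -0.39 for mitochondrial members. At an unadjusted p under 0.05, the number of lower members (5) was 8 with DESeq2 and 8 with library size alone, and 0 to 6 with a mouse left out, the lowest being that without mouse 24. The number of higher members (8) was 3 with length-scaled counts, 3 with DESeq2 on these, 3 with protein-coding transcripts alone, 0 with library size alone and 0 to 37 with a mouse left out. Members higher without overlap (18) numbered 2 with library size alone and 6 with TPM in place of CPM. Of 673 refitted log2 fold changes of the 43 members named by rule, 26 changed sign, and members named after their values were seen were not among them. With library size alone these were *Ndufa10* (-0.000588), *Sdha* (-0.0779), *Uqcrb* (-0.0836), *Uqcrh* (-0.0803), *mt-Atp6* (-0.0438) and *mt-Nd3* (-0.13), with protein-coding transcripts alone *Ndufs3* (0.57), *Uqcrh* (-0.00342) and *mt-Nd3* (-0.0265), with copies added *mt-Atp6* (-0.47) and *mt-Nd3* (-0.37), and with length-scaled counts *Ndufs4* (0.0257 with edgeR and 0.0280 with DESeq2). With single mice left out, the range crossed 0 for *Cox7a1* (-0.662 to 0.0825), ENSMUSG00000116933 (-0.665 to 0.145), *Ndufa10* (-0.0417 to 0.375), *Ndufs4* (-0.0977 to 0.0944), *Sdha* (-0.0147 to 0.24), *Uqcrb* (-0.0299 to 0.215), *Uqcrh* (-0.135 to 0.267), *mt-Atp6* (-0.00415 to 0.241) and *mt-Nd3* (-0.331 to 0.292). The causes were not tested, except that adding copies changes *mt-Atp6* and *mt-Nd3* by construction. No paired analysis was possible because the genotypes share no mouse numbers. The depth of 13036643 to 32855343 reads and 3 mice per genotype limit what can be called: *Cox7a1*, *Cox4i2* and *Cox6a2* have few reads.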
